A study of Mus musculus with 8 samples.

Results

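A group of 10 genes of the smooth muscle and myofibroblast contractile apparatus (Acta2, Cnn1, Tagln, Myl9, Tpm1, Tpm2, Actg2, Myh11, Cald1 and Lmod1) was followed through 8 libraries of mouse embryonic fibroblasts. They are 10 of the 39017 genes in the count table, and all 10 were among the 18952 genes with enough counts to be tested. The group was chosen by measured values as well as by function: Acta2 and Cnn1 stood among the genes with the lowest knockout to control ratio in total RNA, and the other 8 were added as genes of the same contractile programme. The fibroblasts came from E13.5 embryos, and poly(A) RNA was sequenced as 4 groups of 2 biological replicates each. Knockout cells had lost Mettl3, the enzyme that writes N6-methyladenosine on mRNA, through a Cre recombinase activated with 500 nM 4-hydroxytamoxifen for 48 h, and were examined 7 days later. Control cells carry the label control only, and whether they received the drug is not given in the sources used here, nor are the driver of the Cre and the number of embryos. Total RNA (control total and knockout total) came from cells without stress. The granule fraction (control granule and knockout granule) was taken after 30 min in 500 µM sodium arsenite, an oxidative stress, and was enriched for stress granules, cytoplasmic bodies of stalled mRNA, by centrifugation. Arsenite and fraction changed together, so a granule to total ratio holds both.

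Smooth muscle cells, and fibroblasts that turn into myofibroblasts, build contractile filaments from alpha-smooth muscle actin and a set of proteins that bind it. Most of these genes are switched on by serum response factor (SRF), which binds a DNA element called the CArG box together with myocardin or the myocardin-related factors Mrtfa and Mrtfb. The myocardin-related factors are held in the cytoplasm by monomeric actin and reach the nucleus when actin polymerises, and TGF-beta signalling and TEAD factors at MCAT elements also raise the programme. Cultured embryonic fibroblasts on plastic are known to carry part of this programme, with Acta2 as its usual marker.

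The promoter letters in which SRF and TEAD elements were looked for are shown first, because the members are best known for sharing them. RefSeq windows (GRCm38.p6) from 250 bases before to 50 bases after a start site were at hand for 7 members, in 8 windows, and Tagln, Actg2 and Myh11 are named only. The elements searched, on both strands, were the CArG box, a CArG-like form with a single C or G among its central letters, and the MCAT element CATTCC. Capitals mark the element in each 30-base site, written 5′ to 3′ on the strand of the gene.
Acta2, CArG-like, chr19:34255438-34255467, minus strand: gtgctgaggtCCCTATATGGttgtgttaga
Acta2, CArG-like, chr19:34255388-34255417, minus strand: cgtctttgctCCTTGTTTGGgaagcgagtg
Acta2, MCAT, chr19:34255502-34255531, minus strand: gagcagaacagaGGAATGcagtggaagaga
Tpm1, MCAT, chr9:67049252-67049281, minus strand: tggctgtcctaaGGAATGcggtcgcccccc
Lmod1, MCAT, chr1:135324671-135324700, plus strand: ccaagattccctGGAATGtcctcaagtttc
Cald1, MCAT, chr6:34598339-34598368, plus strand: gagcatgcctagGGAATGacaggcatctgc

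Myl9 was the member with a CArG box in its window, from -161 to -152 relative to the start, and a CArG-like element from -99 to -90. The bases before its first annotated exon (206 bases, chr2:156775214-156775419, plus strand) are shown with both elements in capitals, beside the matching stretch of Cnn1 (213 bases, chr9:22099003-22099215, plus strand), which held none of the 3 elements.
Myl9: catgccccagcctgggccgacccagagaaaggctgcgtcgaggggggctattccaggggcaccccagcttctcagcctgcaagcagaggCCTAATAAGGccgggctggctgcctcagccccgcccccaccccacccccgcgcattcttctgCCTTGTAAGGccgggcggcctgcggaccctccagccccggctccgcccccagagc
Cnn1: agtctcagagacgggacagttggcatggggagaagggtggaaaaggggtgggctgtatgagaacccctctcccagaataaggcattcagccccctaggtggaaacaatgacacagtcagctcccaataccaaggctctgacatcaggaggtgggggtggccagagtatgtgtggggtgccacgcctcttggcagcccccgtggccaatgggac
Over the 8 windows of the members, 1 held a CArG box, 2 a CArG-like element and 4 an MCAT element. Of all 32851 RefSeq windows of that length, 1.63% held a CArG box, 8.5% a CArG-like element and 14.7% an MCAT element. A match describes letters, not binding, and elements farther out or inside introns lie outside these windows.

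Total counts per library ranged from 67257220 to 123508539. Mettl3 lay between 24.9 and 25.4 CPM (the count scaled to library size) in control total, at 15.4 and 15.7 in control granule, and between 5.56 and 7.35 in the knockout libraries, so every knockout library was below every control library. Replicates of knockout total RNA stood far apart: their median absolute log2 ratio was 0.813 for the 10261 genes whose mean reached 5 CPM, against 0.101 to 0.312 in the other groups, and followed GC content (Spearman correlation -0.734 across genes, which are not independent replicates). The ratio of the control total replicates followed GC content as well, in the other direction (0.764). Mitochondrial transcripts took 7.6% of the counts of knockout total replicate 1 and 6.16% and 8.81% of the knockout granule libraries, but 0.59% to 0.881% elsewhere. All 12 fibroblast markers had a mean over 1 CPM, with summed levels of 3716 to 8280 CPM. Of 8 defining smooth muscle markers outside the group (Des, Smtn, Myocd, Synpo2, Kcnmb1, Npnt, Mylk, Pln), 4 had a mean over 1 CPM, and Myocd, the smooth muscle coactivator itself, lay between 0.08 and 0.82 CPM. The labels give no batch.

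The muscle actin and the tropomyosins dominated the programme in total RNA of control fibroblasts. Scaled to exon length, Acta2 stood at 355 ± 108 CPM per kb in control total RNA (SD, n = 2), Tpm1 at 276 ± 39.3, Tpm2 at 97.8 ± 19.1, Tagln at 82.1 ± 21.3, Myl9 at 50.9 ± 16.2 and Cald1 at 34.2 ± 6.65. The ranges of mean ± SD overlapped between Acta2 and Tpm1 and between each pair of neighbours from Tpm2 down to Cald1. Cnn1 (4.50 ± 1.98), Actg2 (1.78 ± 0.496) and Lmod1 (0.357 ± 0.18) were far lower, and Myh11, the smooth muscle myosin heavy chain that marks mature smooth muscle, was lowest at 0.0608 ± 0.00164 CPM per kb. Myh11 rested on 32 to 79 reads a library. The order in control granules was Tpm1 (406 ± 11.4 CPM per kb), Acta2 (218 ± 21.9), Cald1 (113 ± 0.47) and Tpm2 (101 ± 8.97), with Tagln at 60.9 ± 8.48. Both orders depend on the length used. Per kb of the longest coding transcript, Tpm1 stood at 910, Cald1 at 286 and Acta2 at 235 CPM per kb in control granules. In control total RNA Tpm1 (619) then lay above Acta2 (383), and Cald1 (86.2) above Myl9 (52.5).

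Whether loss of Mettl3 goes with a different level of these mRNAs was asked first in the granule fraction, which shares no library with the total RNA contrast by which the genes came forward. Whether granule and total RNA came from the same cultures is not given in the sources used here. Acta2, Cnn1, Tagln and Tpm1 were lower in knockout granules, by 2.11- to 5.86-fold. Of the 10 members, 4 were called (edgeR's quasi-likelihood test, Benjamini-Hochberg adjusted p under 0.05 over all genes tested), all lower, against 9.45% of all genes called in either direction and 3.66% lower. The median log2 fold change of the members was -0.99, that of all genes 0.08. In 7 members both knockout granule libraries lay below both control granule libraries, as did 36.6% of all genes.

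Acta2, the gene of alpha-smooth muscle actin (ENSMUSG00000035783, GRCm38 chromosome 19, 34241090 to 34255590, minus strand), stood at 445 and 513 CPM in the control granule libraries and at 97.5 and 65.8 in the knockout ones. The groups did not overlap, and the log2 fold change was -2.55 (SE 0.33; edgeR adjusted p = 0.008 in edgeR's test). Cnn1 encodes calponin, which binds actin and restrains its motor (ENSMUSG00000001349, chromosome 9, 22099216 to 22109630, plus strand). Its control granule libraries held 12.3 and 15.0 CPM and its knockout ones 3.26 and 1.89, a log2 fold change of -2.41 with SE 0.44 (adjusted p = 0.019 in edgeR's test). Tagln encodes transgelin, an actin-bundling protein (ENSMUSG00000032085, chromosome 9, 45929619 to 45936058, minus strand). Values of 109 and 133 CPM in control granules stood against 33.1 and 20.2 in knockout granules, a log2 fold change of -2.19 with SE 0.37 (adjusted p = 0.015 in edgeR's test). Exons of Pcsk7 and Gm48529 overlap 67.9% of the exonic bases of Tagln and how strand entered the counting is not given in the sources used here, so its count is uncertain. Pcsk7 itself was at 37.0 and 34.3 CPM in control granules and 35.2 and 31.2 in knockout granules.

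Tropomyosins lie along the actin filament and gate the access of myosin. Tpm1 (ENSMUSG00000032366, chromosome 9, 67022590 to 67049406, minus strand) stood at 2579 and 2683 CPM in control granules and 1238 and 1259 in knockout granules, a log2 fold change of -1.08 with SE 0.27 (adjusted p = 0.046 in edgeR's test). This call sat at the threshold: adjusted p was 0.071 with upper-quartile scaling and 0.054 with library size alone. Tpm2 (ENSMUSG00000028464, chromosome 4, 43514711 to 43523765, minus strand) had 276 and 313 CPM against 157 and 156, which do not overlap, with a log2 fold change of -0.91 with SE 0.26 (adjusted p = 0.062) that was not called. Actg2, the enteric smooth muscle actin (ENSMUSG00000059430, chromosome 6, 83512905 to 83536265, minus strand), had 2.67 and 3.37 CPM against 1.52 and 0.855, with a log2 fold change of -1.34 with SE 0.40 (adjusted p = 0.074), also not called.

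The remaining 4 members were not called between the genotypes in granules. Myl9, the regulatory light chain whose phosphorylation starts contraction (ENSMUSG00000067818, chromosome 2, 156775420 to 156781658, plus strand), had 52.7 and 63.3 CPM in control and 48.2 and 28.3 in knockout granules, a log2 fold change of -0.60 with SE 0.36 (adjusted p = 0.31). Cald1, caldesmon, an inhibitor of the myosin motor on actin (ENSMUSG00000029761, chromosome 6, 34598500 to 34775473, plus strand), had 1368 and 1360 CPM in control granules. Its knockout granule libraries held 1345 and 1695 CPM, which overlap the control values. Lmod1, leiomodin, which nucleates actin filaments (ENSMUSG00000048096, chromosome 1, 135324807 to 135368065, plus strand), also overlapped, with 5.44 and 6.72 CPM against 5.00 and 5.62. Myh11 (ENSMUSG00000018830, chromosome 16, 14194535 to 14291372, minus strand) had 0.349 and 0.369 CPM against 0.528 and 0.804, a log2 fold change of 0.89 with SE 0.39 (adjusted p = 0.19).

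**Figure D1:**
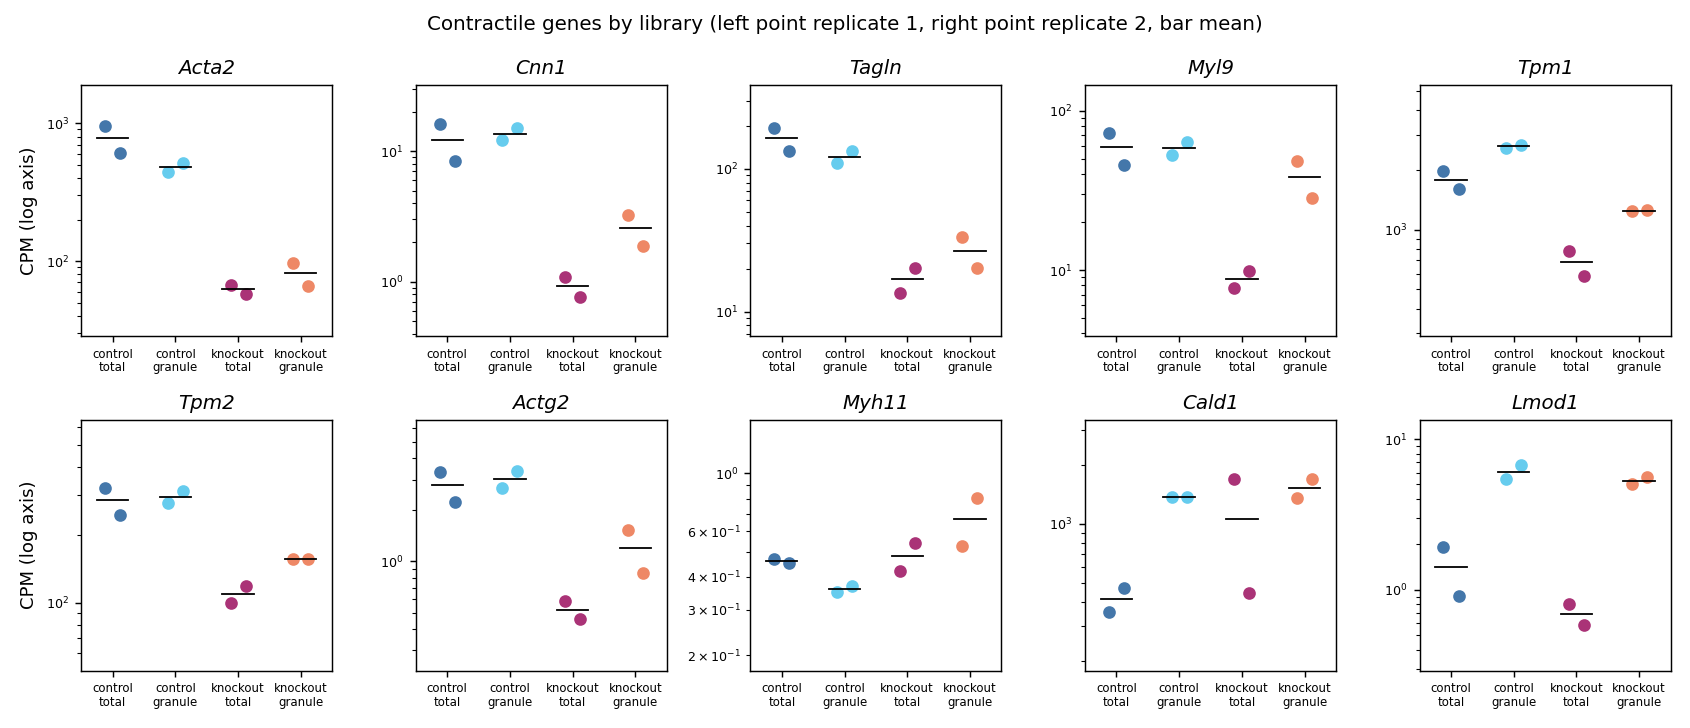
CPM of each of the 10 genes on a log axis, by group, with replicate 1 as the left point, replicate 2 as the right point and a bar at the mean of the 2 libraries. Acta2, Cnn1, Tagln and Tpm1 lie lower in both knockout groups than in both control groups, while Cald1 spans 441 to 1681 CPM between the knockout total replicates.

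Leaving out single libraries moved these calls. Without knockout total replicate 1, or without knockout total replicate 2, neither of which belongs to the comparison, 6 members were called lower (Tpm2 and Actg2 in addition), against 39.0% and 38.9% of all genes called in either direction. Without any 1 of the control granule or knockout granule libraries, edgeR called fewer members and far fewer of all genes. The log2 fold change of Acta2 stayed between -2.91 and -2.3 whichever library was left out. DESeq2's Wald test called 6 members, beside 3381 of 18952 genes. In bulk RNA, fewer cells with a contractile programme and less of these mRNAs per cell cannot be told apart. The 8 smooth muscle markers outside the group summed to 146 to 153 CPM in control granules and 242 to 304 in knockout granules, with genes on both sides. Npnt (29.3 and 27.9 against 173 and 108 CPM) and Mylk (19.1 and 17.8 against 48.3 and 48.2) were higher in the knockout libraries. Smtn (99.4 and 96.9 against 78.3 and 81.6), Synpo2 (1.14 and 1.07 against 0.637 and 0.468) and Myocd (0.34 and 0.255 against 0.091 and 0.102) were lower. Kcnmb1 was at most at 0.0407 CPM in any granule library. Mitochondrial transcripts were higher in both knockout granule libraries. The part of these markers and transcripts in the result was not tested.

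In total RNA the knockout values are those by which Acta2 and Cnn1 came forward, and they are given as a description. Acta2 stood at 946 and 612 CPM in control total and 67.4 and 57.4 in knockout total, Cnn1 at 16.1 and 8.48 against 1.09 and 0.769. Tagln had 193 and 133 CPM against 13.52 and 20.1, and Myl9 had 72.5 and 45.9 against 7.72 and 9.80. Tpm1 went from 1968 and 1608 to 785 and 584 CPM, Tpm2 from 324 and 245 to 100.2 and 119, and Actg2 from 3.32 and 2.23 to 0.584 and 0.457. Lmod1 had 1.91 and 0.906 CPM against 0.809 and 0.582. In these 8 members the groups did not overlap, as was the case in the same direction for 24.7% of all genes. Myh11 overlapped, with 0.471 and 0.453 CPM against 0.423 and 0.540. The log2 fold changes were -3.72 for Cnn1, -3.64 for Acta2, -3.28 for Tagln, -2.76 for Myl9 and -2.41 for Actg2. They were -1.39 for Tpm1, -1.37 for Tpm2 and -1.01 for Lmod1. Past the threshold were Cnn1, Acta2, Tagln and Myl9. Since Acta2 and Cnn1 came forward by these values, the count of members is not independent of the choice. The members past the threshold numbered 4, all lower, where 0.412% of all genes were called in either direction and 0.137% lower. The number was 7, all lower, without knockout total replicate 1 (5.52% of all genes) and 8, with Cald1 higher among them, without knockout total replicate 2 (47.8%). With any 1 of the other 6 libraries left out, edgeR called fewer members and fewer of all genes. A fit of only these 4 libraries called 0 of the 17240 genes tested. Of the members, 7 had an unadjusted p under 0.05 in it, as had 1766 of those genes. Marker sums of cell types moved both ways in total RNA. Fibroblast markers summed to 4726 to 5903 CPM in control total and 3716 to 4227 in knockout total. Genes of that list lay on both sides, with Prrx1 and Twist1 higher and Vim and S100a4 lower. Epithelial markers summed to 359 to 453 and 153 to 184, and pericyte, macrophage and neural sums were lower as well. Higher were the endothelial (14.2 to 15.5 against 15.8 to 21.2 CPM) and cardiac muscle sums (3.62 to 4.25 against 10.3 to 12.9). So were the erythroid sums (65.0 to 71.8 against 82.7 to 87.1). The epithelial and cardiac sums followed mainly 1 gene each. Krt18 had 329.5 and 200.5 CPM in control total against 46.9 and 87.6 in knockout total. Epcam, Cdh1, Krt8 and Krt5 were lower too, from smaller levels, and Krt14 overlapped. Of 8 cardiac markers, 1 had a mean over 1 CPM. That was Tnnt2, at 2.79 and 2.65 CPM against 9.61 and 11.95, while Tnni3 and Nkx2-5 overlapped. Smooth and skeletal muscle sums overlapped. The part of these markers in the values was not tested.

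Cald1 went against the other members in total RNA, and this rested on 1 library. Its control total libraries held 355 and 468 CPM, knockout total replicate 1 held 1681 and knockout total replicate 2 held 441, within the control range. The log2 fold change was 1.37 with all libraries (SE 0.55), 0.10 without knockout total replicate 1 and 2.14 without knockout total replicate 2. With each library's trend over GC content removed it was 0.79. At 45.0% GC, the Cald1 transcript was the lowest of the 10 members, whose median was 52.6% (all coding genes in the table: 49.1%).

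**Figure D2:**
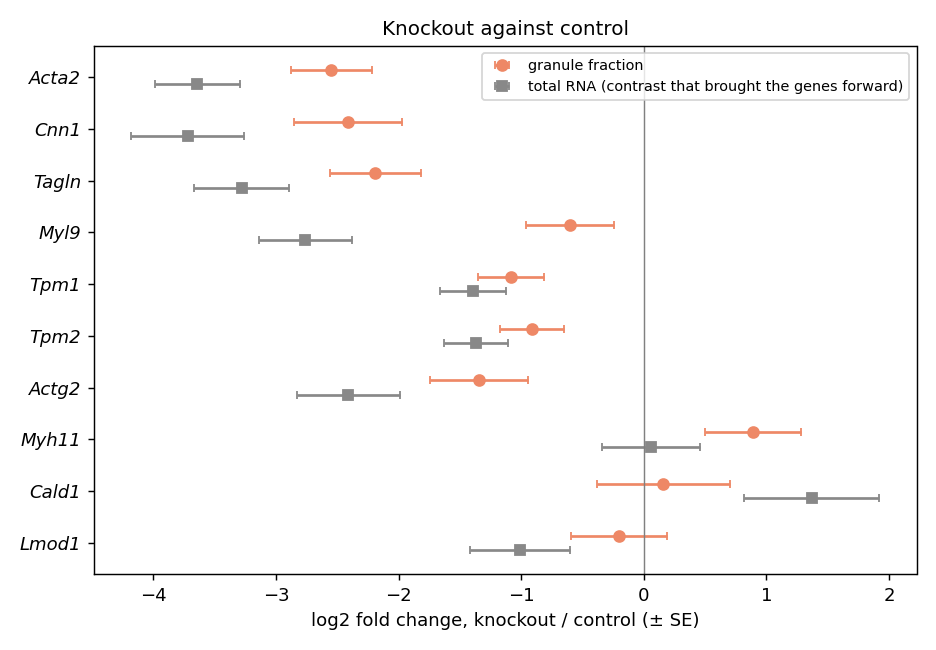
Log2 fold change of knockout against control with its standard error, for the granule fraction (circles) and for total RNA (squares, the contrast by which the genes came forward). Acta2, Cnn1 and Tagln lie between -2.19 and -2.55 in granules and between -3.28 and -3.72 in total RNA, and Myl9 lies at -0.60 in granules and -2.76 in total RNA.

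Granule and total RNA were then compared within each genotype, which is where a redistribution of these mRNAs under arsenite would appear. In control cells Lmod1 was higher in granules, at 5.44 and 6.72 CPM against 1.91 and 0.906 in total RNA. The groups lay apart, with a log2 fold change of 2.11 with SE 0.42 (adjusted p = 0.024 in edgeR's test). Lmod1 was the 1 member called, where 10.1% of all genes were called and 5.89% were called higher. It rested on 84 to 765 reads a library in control cells. The median over members was 0.09, that of all genes -0.06.

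The other members of the control comparison split by gene. Cald1 had 1368 and 1360 CPM in granules against 355 and 468 in total RNA, which do not overlap, with a log2 fold change of 1.73 with SE 0.55 (adjusted p = 0.082). Tpm1 had 2579 and 2683 CPM against 1968 and 1608 (log2 fold change 0.56, SE 0.27, adjusted p = 0.21). Acta2 lay on the other side, at 445 and 513 CPM in granules against 946 and 612 in total RNA (log2 fold change -0.70, SE 0.32, adjusted p = 0.18). Control total libraries, the denominator here, also took part in the choice of Acta2 and Cnn1. The sign for Acta2 is thus not independent of that choice. Tagln (-0.43, adjusted p = 0.45) and Myh11 (-0.36, adjusted p = 0.58) also had both granule libraries below both total libraries. Cnn1, Myl9, Tpm2 and Actg2 overlapped between the fractions, with log2 fold changes from -0.03 to 0.15. Without knockout total replicate 1 the members called were 4 (Lmod1, Cald1 and Tpm1 higher, Acta2 lower; 40.6% of all genes), and without knockout total replicate 2 they were the same 4 (39.9%). With any 1 of the other 6 libraries left out, edgeR called fewer members and fewer of all genes in this comparison.

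In knockout cells every member had a positive log2 fold change of granules over total RNA, with a median of 0.77 against 0.04 for all genes. The knockout total libraries, in which Acta2 and Cnn1 were picked for low values, are the denominator here, so this sign is not independent of the choice. Lmod1 had 5.00 and 5.62 CPM in granules against 0.809 and 0.582 in total RNA (log2 fold change 2.93, SE 0.43, adjusted p = 0.006 in edgeR's test). Myl9 had 48.2 and 28.3 CPM against 7.72 and 9.80 (log2 fold change 2.13, SE 0.37, adjusted p = 0.011 in edgeR's test). These 2 were called, both higher, where 17.6% of all genes were called and 9.17% were called higher. In 7 members the granule libraries lay above the total libraries, as for 31.5% of all genes.

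Cnn1 came near the threshold in knockout cells, at 3.26 and 1.89 CPM in granules against 1.09 and 0.769 (log2 fold change 1.47, SE 0.43, adjusted p = 0.052). Tpm1 (0.87, adjusted p = 0.06) and Actg2 (1.19, adjusted p = 0.081) were not called either. Tagln had 33.1 and 20.2 CPM against 13.52 and 20.1 (log2 fold change 0.66, SE 0.35, adjusted p = 0.23), and Acta2 overlapped, at 97.5 and 65.8 CPM against 67.4 and 57.4. Without knockout total replicate 1, 6 members were called (34.0% of all genes), and without knockout total replicate 2, 5 were called (48.2%). Leaving out either knockout granule library gave fewer members called, and fewer of all genes. A fit of these 4 libraries alone called 0 of the 18141 genes tested with edgeR. Of the members, 3 had an unadjusted p under 0.05 in it, as had 4363 of those genes. For Cald1 the change was 0.52 with all libraries, 1.78 without knockout total replicate 1 and -0.27 without knockout total replicate 2.

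**Figure D3:**
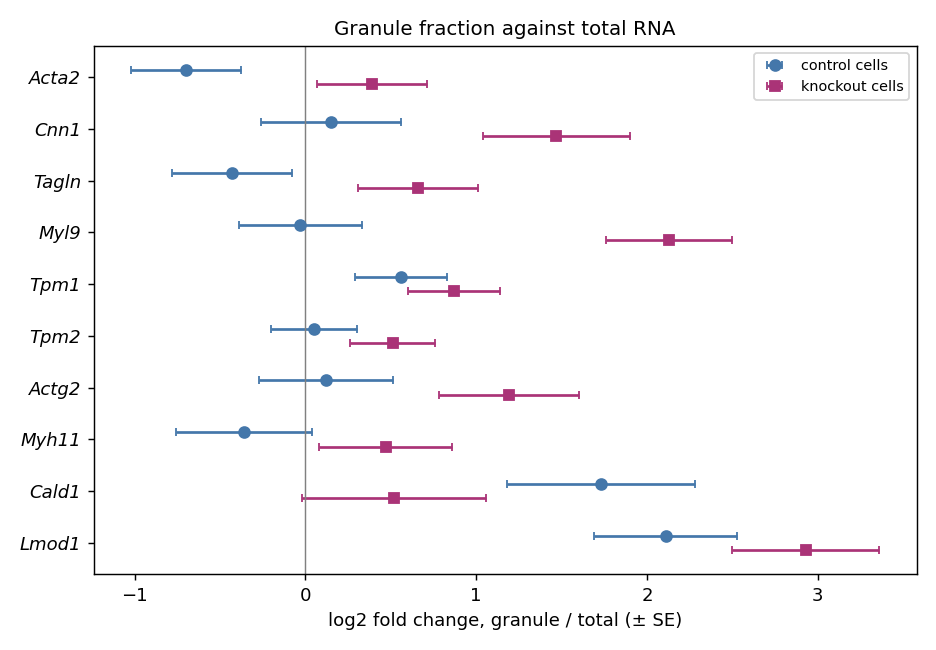
Log2 fold change of the granule fraction against total RNA with its standard error, in control cells (circles) and knockout cells (squares). Lmod1 lies to the right in both genotypes, at 2.11 and 2.93, and Myl9 lies at -0.03 in control cells and at 2.13 in knockout cells.

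The difference between the genotypes in this ratio contains the total RNA contrast and is given as a description. It was 2.16 (SE 0.51) for Myl9, 1.32 (SE 0.59) for Cnn1, 1.10 (SE 0.50) for Tagln and 1.09 (SE 0.45) for Acta2 on the log2 scale. For Cald1 it was -1.21 (SE 0.76), and 0.04 without knockout total replicate 1. With edgeR 0 of the 10 members were past the threshold, where 0.517% of all genes were, and 2 were at an unadjusted p under 0.05, where 25.8% of all genes were. DESeq2's Wald test gave 1, beside 2724 of 18952 genes. The number was 2 without knockout total replicate 1 (18.6% of all genes) and 3 without knockout total replicate 2 (46.4%).

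The regulators of the programme were examined as a list of 20 genes. Srf, the DNA-binding factor itself, had 227 and 186 CPM in control granules and 146 and 128 in knockout granules (log2 fold change -0.59, SE 0.34, adjusted p = 0.30). Mrtfa and Mrtfb, its coactivators, had log2 fold changes of -0.43 and -0.84 in the same comparison (adjusted p = 0.32 and 0.11), and Myocd had -1.61 (SE 0.93, adjusted p = 0.30) from levels under 0.4 CPM. In total RNA Srf changed by -0.14, Mrtfa by -0.16 and Mrtfb by 0.66 on the log2 scale, none of them called. The 1 regulator of 20 called between the genotypes in granules (all genes: 9.45%) was Klf4, known to repress smooth muscle genes. It rose from 77.7 and 75.4 CPM to 325 and 339, a log2 fold change of 2.12 with SE 0.25 (adjusted p = 0.0058 in edgeR's test). The median of the 20 was -0.30 in this comparison, against 0.08 for all genes.

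Between granules and total RNA 3 of the 20 regulators were called in control cells, all higher, beside 10.1% of all genes. Rock1 and Rock2, kinases that promote actin assembly and myosin activity, rose by 3.34 (SE 0.54) and 2.75 (SE 0.66), and Elk3, an SRF partner, by 1.68 (SE 0.24) on the log2 scale (adjusted p = 0.014, 0.04 and 0.01 in edgeR's test). In knockout cells 4 of the 20 were called, all higher, a share near the 17.6% of all genes, with Rock1 at 2.56 (SE 0.52), Elk3 at 1.80 (SE 0.24) and the SRF cofactor Fhl2 at 1.37 (SE 0.34) the 3 with the largest change. Rock2 differed between the knockout total replicates, at 271 and 58.5 CPM. The list had a median of 0.76 in control cells and 0.40 in knockout cells, against -0.06 and 0.04 for all genes.

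A further 34 genes of the contractile apparatus and its anchors, of which 33 were tested, were counted in the same way. In granules 7 were called between the genotypes, 6 lower and 1 higher in knockout cells, where 9.45% of all genes were called and 3.66% were lower. The median was -0.33, against 0.08 for all genes. Vcl, vinculin, which ties actin to adhesion sites, fell from 164 and 134 CPM to 22.4 and 21.4 (log2 fold change -2.76, SE 0.28, adjusted p = 0.004 in edgeR's test). Fhl1, a LIM domain protein of muscle, fell from 80.0 and 79.3 CPM to 18.6 and 14.4 (log2 fold change -2.27, SE 0.33, adjusted p = 0.011). Ldb3, a Z-disc protein, fell from 1.84 and 1.83 CPM to 0.56 and 0.70 (log2 fold change -1.54, SE 0.39, adjusted p = 0.047). The member that rose was Mylk, the kinase of the light chain that Myl9 encodes, from 19.1 and 17.8 CPM to 48.3 and 48.2 (log2 fold change 1.39, SE 0.30, adjusted p = 0.032 in edgeR's test).

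In total RNA 24 of these 33 genes had a negative log2 fold change in knockout cells, with a median of -0.76 against 0.02 for all genes. EdgeR called 0 of them (all genes: 0.412%), with 15 at an unadjusted p under 0.05 (all genes: 24.8%). DESeq2's Wald test called 7, beside 2437 of 18952 genes. Without knockout total replicate 1 edgeR called 7, all lower (5.52% of all genes), and without knockout total replicate 2 it called 19, of which 14 were lower (47.8% of all genes). Between granules and total RNA Nexn, an actin-binding protein, was the 1 gene called in control cells (log2 fold change 2.87, SE 0.67, edgeR adjusted p = 0.037). Of all genes 10.1% were called there. In knockout cells Cnn2 (2.28, SE 0.46, adjusted p = 0.016) and Mylk (1.48, SE 0.30, adjusted p = 0.017) were called higher and Vcl lower (-1.17, SE 0.27, adjusted p = 0.024). There 17.6% of all genes were called, and in both genotypes the share of this list lay below that of all genes.

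Among the 4 other actins, 1 was called between the genotypes in granules, beside 9.45% of all genes. Actg1, cytoplasmic gamma-actin, fell from 1925 and 2014 CPM to 581 and 473 (log2 fold change -1.90, SE 0.30, adjusted p = 0.012 in edgeR's test). Actb, cytoplasmic beta-actin, had 9954 and 10917 CPM against 5446 and 5247, which do not overlap, with a log2 fold change of -0.96 with SE 0.35 (adjusted p = 0.12). The striated muscle actins Acta1 and Actc1 lay between 3.29 and 10.5 and between 0.22 and 0.956 CPM over the 8 libraries and were not called. In Acta2, 0.35% of the 50-base windows of the transcript also occur in other genes.

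TGF-beta pathway and matrix genes of myofibroblasts did not move in 1 direction. Knockout granules held more of 4 and less of 2 of these 28 genes by edgeR's test, beside 9.45% of all genes called, with a median of 0.06 against 0.08 for all genes. Tgfbi, a secreted matrix protein induced by TGF-beta, rose from 7.12 and 7.67 CPM to 64.1 and 58.7 (log2 fold change 3.05, SE 0.26, adjusted p = 0.0027 in edgeR's test). Tgfb1, the ligand, rose from 25.3 and 27.9 CPM to 98.9 and 76.3 (log2 fold change 1.72, SE 0.35, adjusted p = 0.027), and the collagen gene Col3a1 from 148 and 119 to 416 and 447 (1.69, SE 0.25, adjusted p = 0.011). Between granules and total RNA 4 were called higher and 1 lower in control cells (all genes: 10.1% called), led by Thbs1 (thrombospondin, 1.83, SE 0.31), Ccn2 (1.63, SE 0.24) and Smad7, the inhibitor of the pathway (1.47, SE 0.34). In knockout cells 5 were higher and 1 lower (all genes: 17.6% called), led by Tgfbi (2.88, SE 0.26), the ligand gene Tgfb3 (2.43, SE 0.32) and the collagen gene Col1a1 (1.56, SE 0.28). The medians were 0.46 and 0.42.

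Immediate-early genes are SRF targets of another kind, driven with ternary complex factors in place of the myocardin family, and they moved apart from the members. Of 10, 7 were called higher in granules than in total RNA in control cells (median 3.01; 5.89% of all genes higher) and 9 in knockout cells (median 2.46; 9.17% of all genes higher), where the members had medians of 0.09 and 0.77. Nr4a1, Fosb and Egr2 led in control cells, with log2 fold changes of 3.70 (SE 0.32), 3.68 (SE 0.29) and 3.21 (SE 0.35). Egr2, Fos and Nr4a1 led in knockout cells, with 4.11 (SE 0.36), 3.61 (SE 0.31) and 3.29 (SE 0.32). Between the genotypes in granules the 1 called (all genes: 9.45%) was Egr2, which rose from 37.5 and 33.8 CPM to 164 and 91.7 (log2 fold change 1.84, SE 0.33, adjusted p = 0.018 in edgeR's test). The difference between the lists was not tested.

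The counts of these lists moved with single libraries, as did those of the members and of all genes. Between the genotypes in granules, leaving out knockout total replicate 1 or replicate 2 gave 8 and 10 regulators, 15 and 14 other contractile genes, 18 and 18 TGF-beta and matrix genes and 6 and 6 immediate-early genes. In these fits 39.0% and 38.9% of all genes were called, so the shares of the regulators and contractile genes were near the background. Between granules and total RNA in control cells it gave 11 and 11 regulators, 15 and 15 contractile genes and 19 and 17 TGF-beta and matrix genes (40.6% and 39.9% of all genes). In knockout cells the same lists had 9 and 13, 13 and 15, and 14 and 19 (34.0% and 48.2% of all genes). With 1 of the other 6 libraries left out, edgeR called fewer of all genes in each comparison. The list counts between the genotypes in granules then did not exceed those with all libraries. Nor did the counts of immediate-early genes in granules over total RNA, in control or in knockout cells.

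The members differed in transcript length and in their longest internal exon. Their GC content lay above the median of coding genes (49.1%) in every member but Cald1 (45.0%), from 49.6% for Acta2 to 56.6% for Myl9. Their median transcript length was 2278 bases (2714 over all coding genes in the table) and their median longest internal exon 192 bases (214). The 2 members with the highest granule to total ratio in control cells, Lmod1 and Cald1, had the longest internal exons of the group, 1500 and 1021 bases. Myh11 followed with 361 bases, but its log2 fold change there was -0.36. Tpm1, with 0.56, had a longest internal exon of 134 bases. A link between exon length and this ratio was not tested. The pentamer GGACT, the core of the common m6A motif, occurred 1.97 times per kb in Acta2, 1.88 in Tagln and 0 in Cald1, with a median of 0.757 over the members and 1.01 over coding genes. No m6A map was used here, and a match is a description of letters.

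Genes of like profile were looked up over the 8 libraries, by Pearson correlation of log2 CPM with the mean profile of the 7 members whose mean reached 5 CPM, among 10254 genes. The 5 highest were Cavin4 (0.98), Add1 (0.973), Pccb (0.972), Dmpk (0.972) and Crabp2 (0.969). Of the members in the profile, Cnn1 had 0.989, Tpm1 0.985 and Cald1 -0.051. By Spearman's correlation, where ties share the best rank, Crabp2 ranked 1, Add1 ranked 4, and Cavin4, Dmpk and Pccb ranked 51, 51 and 129. Leaving out single libraries kept between 0 and 4 of them. The 8 points share their libraries with every value above, so these figures are a description.

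Several members differed together between the replicates of a group. In control total RNA 9 of the 10 were higher in replicate 1 than in replicate 2, with a median log2 ratio of 0.55 against 0.02 for all genes whose mean reached 5 CPM. That ratio followed GC content over genes (0.764, above), and the median GC content of the members was 52.6% against 49.1% for coding genes. The part of GC content was not tested. Acta2 (0.63), Cnn1 (0.93), Tagln (0.53), Myl9 (0.66) and Actg2 (0.57) lay between the 96.2 and 99.9 percentiles of those genes, and Lmod1, from 130 and 84 reads, was at 1.06. In control granules 9 of the 10 were lower in replicate 1, with a median of -0.23. In knockout granules the same 5 genes were higher in replicate 1, from 0.57 for Acta2 to 0.82 for Actg2, between the 98.8 and 99.7 percentiles, while Tpm1 and Tpm2 stood at -0.02 and 0.0. In knockout total RNA the 10 members ranged from -0.57 for Tagln to 1.93 for Cald1.

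**Figure D4:**
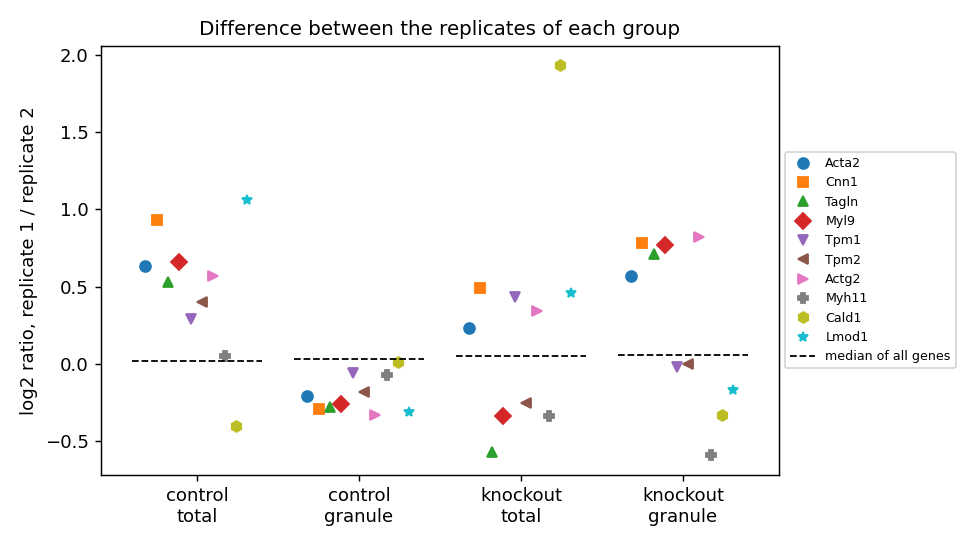
Log2 ratio of replicate 1 to replicate 2 for each member (symbols) in the 4 groups, with the median of all genes as a dashed line. Acta2, Cnn1, Tagln, Myl9 and Actg2 lie above the line in control total and knockout granule RNA and below it in control granules, and Cald1 reaches 1.93 in knockout total RNA.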

How the data were processed

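The deposited table holds raw read counts per Ensembl gene, 1 column per library, not pooled. Per the submitters' processing notes, STAR, DESeq2 and the build GRCm38 (mm10) were used; counting program, strand setting and annotation release are not given in the sources used here. Names, positions and lengths came from GENCODE M21 (GRCm38), which matched 37693 of 39017 identifiers. Tests used edgeR 4.0.16 under R 4.3.3 (quasi-likelihood, robust, TMM scaling, its expression filter), with 4 group means over all 8 libraries with 4 residual degrees of freedom and Benjamini-Hochberg adjustment over 18952 genes. CPM values use TMM-scaled library sizes. With 2 libraries a side an exact permutation test of a single gene cannot go below p = 0.333, so none was used. Levels per kb use the union of exons. The fit was tested on simulated counts for the genotype comparison in granules, with 50 genes changed at each size. It recovered 12% of the genes changed by 1 on the log2 scale, 50% at 2, 90% at 3 and 98% at 4. Of 133 genes called, 8 were unchanged. A change near 1 on the log2 scale was thus mostly missed in the simulation. The measured comparison called 1791 genes, so the adjusted threshold fell at another unadjusted p there. The simulated shares need not hold for the measured data. In the smallest library 3 counts equal 0.0441 CPM.

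The members and lists were chosen with earlier results of these data known. Named are all members, Mettl3, Srf, Mrtfa, Mrtfb, Myocd, 4 actins, and per list up to 3 called genes with the largest change in each comparison described; Pcsk7 and Npnt were added after their values were seen. The marker lists for pericytes, skeletal and cardiac muscle, endothelium, epithelium, macrophages, neural and erythroid cells summed to 50.3 to 174, 8.21 to 28.3, 3.62 to 18.4, 6.67 to 21.2, 153 to 885, 36.7 to 80.4, 19.8 to 48.3 and 31.3 to 92.4 CPM over the libraries. Alternatives were other scalings, filters, a log2 fold change limit of 1, DESeq2 1.42.0, voom with quality weights (limma 3.58.1), thinning, GC trend removal (lowess, span 0.3), a replicate block, and leaving out each library. A crossed block and list counts without single knockout total libraries were added after seeing the data. One listed gene is not reported here.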

Additional observations from a re-analysis of the deposited data

Results flagged for a closer look

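Tagln had its granule libraries on opposite sides of its total libraries in the 2 genotypes, by narrow margins, and was called in neither (log2 fold change -0.43 in control cells, adjusted p = 0.45, and 0.66 in knockout cells, adjusted p = 0.23, edgeR). Both control granule libraries (109 and 133 CPM) lay below both control total libraries (193 and 133 CPM), by 133.0 against 133.4 CPM at the nearest pair. Both knockout granule libraries (33.1 and 20.2 CPM) lay above both knockout total libraries (13.52 and 20.1 CPM), by 20.17 against 20.07 CPM at the nearest pair. The difference between the genotypes was 1.10 on the log2 scale (SE 0.50, adjusted p = 0.21 in edgeR's quasi-likelihood test). It contains the contrast by which the genes came forward. The cause was not tested.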

How the results depend on the processing

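Members called in the granule fraction between genotypes numbered 8 with voom quality weights, where 10454 of 18952 genes were called. They numbered 3 to 6 in the other settings that kept every library. All genes called then ranged from 670 (replicate block) to 10359 (only the groups compared, of 18066 tested). Control granules against control total gave 2 with DESeq2 (4032 of 18952 genes called), GC trend removal (3818) or no filter (4001 of 30351). With only the groups compared (7354 of 17364 genes) or voom (7448 of 18952) the number was 4. A mean of at least 5 CPM gave 0 (1224 of 10260 genes). That filter left 7 members to test and dropped Lmod1, the 1 member called with all libraries. Knockout granules against knockout total gave 5 with DESeq2 (5091 of 18952 genes called). The number was 4 with GC trend removal (6163), library size alone (3091) or the GC trend removed together with the replicate block (5341). A mean of at least 5 CPM gave 1 of the 7 members left (1744 of 10260 genes). Voom gave 0 (1079 of 18952 genes), and only the groups compared gave 0 (0 of 18141). Total RNA gave 7 with DESeq2 (2437 of 18952 genes) or GC trend removal (771), and 8 with no filter (3407 of 30351). It gave 1 with voom (39 of 18952 genes) and 0 with only the groups compared (0 of 17240). The difference between genotypes gave 1 with DESeq2 (2724 of 18952 genes) and 2 with no filter (3476 of 30351). Without single libraries the member counts moved in each comparison, as did those of all genes. Where a group was left with 1 library, it was assumed to vary like the others.

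Replicate numbers did not pair the libraries: deviations correlated from -0.602 to 0.19 over pairs of groups. With the replicate block the member counts were 0 in control cells, 2 in knockout cells and 3 between genotypes in granules. They were 0 in total RNA and 0 for the difference. Of all genes, 581, 1898, 670, 0 and 0 were called, in that order. With the numbers of the control total libraries crossed the member counts were 1, 2, 3, 4 and 0, beside 2354, 3197, 1695, 112 and 94 of all genes.

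Upper-quartile scaling and library size alone shifted the median of all genes from -0.06 to -0.292 and -0.186 in control cells, from 0.08 to 0.227 and 0.169 in granules, and from 0.089 to 0.333 and 0.279 for the difference. Some signs changed. In control granules against total, upper-quartile scaling gave -0.09 for Cnn1, -0.19 for Tpm2 and -0.11 for Actg2; Tpm2 had -0.07 with library size alone and -0.08 with a mean of at least 5 CPM. Myl9 had 0.0 with voom or the replicate block, 0.03 with no filter, 0.35 with GC trend removal and 0.39 with block and GC trend removal. Without single libraries Cnn1 ranged from -0.20 to 0.69, Myl9 from -0.28 to 0.34, Tpm2 from -0.09 to 0.27 and Actg2 from -0.10 to 0.44. Myh11 in total RNA had -0.04 with upper-quartile scaling or library size alone and -0.07 after thinning, and -0.02 to 0.23 without single libraries. Cald1, with 0.52, 0.16 and -1.21 over all libraries, ranged from -0.27 to 1.78 in knockout cells, from -0.03 to 0.26 in granules and from -2.04 to 0.04 for the difference. For the difference Tpm1 ranged from -0.06 to 0.53, and Tpm2 had -0.15 with GC trend removal, with or without the replicate block. Of the member values under alternatives, 844 kept direction and side of the threshold, 79 passed it, 73 fell below it and 29 changed sign. Depth limits Myh11, Actg2 and Lmod1, with at most 79, 383 and 765 reads in a library.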
